A study of Mus musculus with 4 samples.

Results

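The genes described here are Lhx1, Lhx5, Lhx9, Otp, Isl1, Pou4f1, Tlx3 and Lbx1, homeodomain transcription factors that mark neurons soon after they leave the cell cycle. They were taken by gene symbol, and all 8 were found among the 54532 gene IDs of the deposited count table and the 30715 of the deposited table of TPM, the length-scaled abundance of transcripts. RNA was sequenced from cranial neural tubes dissected at embryonic day 10.5, in 4 mouse libraries, 2 in each group. Whether a library is a single embryo or a pool is not given in the sources used here. DCKO embryos carried Lats1 flox/flox and Lats2 flox/flox alleles together with E2f1 Tg(Wnt1-cre)2Sor/+, in which Wnt1 regulatory sequences drive Cre recombinase in cells of the dorsal midline and in neural crest. Control embryos lacked that transgene, and whether they carried floxed alleles is not given in the sources used here. Lats1 and Lats2 encode the kinases of the Hippo pathway that restrain the coactivators YAP and TAZ, and the series title places the comparison in the dorsal cranial neuroepithelium. Cre acts in only part of the dissected tissue.

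A homeodomain is a short DNA-binding fold, and combinations of homeodomain factors give newborn neurons their class. Lhx1, Lhx5, Lhx9 and Isl1 belong to the LIM-homeodomain family, whose LIM domains bind the adaptor Ldb1. Progenitors in successive dorsoventral bands of the neural tube express proneural factors such as Atoh1, Neurog1 and Ptf1a, and each band gives rise to neurons with their own set of homeodomain factors. Isl1, Pou4f1 and Tlx3 are also well known from the neurons of cranial sensory ganglia, which lie outside the neural tube.

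Depth and composition of the libraries bear on every value below. Totals ranged from 41798361 to 55137810 counts, and Spearman's rho across 19207 tested genes was 0.966 between the DCKO libraries and 0.983 between the Control libraries. Lats1 had 30.0 and 29.7 CPM (counts scaled to library depth after TMM correction) in DCKO libraries, against 44.2 and 65.6 CPM in Control libraries. Lats2 had 21.2 and 35.3 CPM in DCKO libraries, against 26.7 and 13.3 CPM in Control libraries, with overlapping groups. Which exons were floxed is not given in the sources used here, so gene counts do not check the deletion. For Xist, which coats the silenced X chromosome, DCKO libraries had 8 and 22 counts, against 10837 and 7786 counts in Control libraries, so embryo sex and genotype cannot be told apart. A small group of ribosomal RNA loci held 24.7% and 30.3% of the counts in DCKO libraries, against 13.2% and 12.4% in Control libraries.

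The proximal promoters of 4 members are shown because these genes span the range of outcomes. Lhx1 and Otp had large falls, Pou4f1 had a smaller difference that did not pass in edgeR, and Isl1 had none that was detected. RefSeq promoter windows (build GRCm38.p6) were found for 6 of the 8 members, those of Lhx5 and Lbx1 not being in the table. The Lhx9 window lies inside the GENCODE gene, at an internal RefSeq start, so it was searched but holds no sequence upstream of the gene. The 250 bases before each start were searched on both strands for the E-boxes CAGCTG and CAGATG, which proneural factors can bind, for the homeodomain core TAATTA and for the TEAD core GGAATG. Sequences run 5′ to 3′ on the strand of the gene, stop where the GENCODE gene begins, and carry matches in capitals. Positions are chr11:84525536-84525784 (minus strand) for Lhx1, chr13:94875386-94875601 (plus strand) for Otp, chr13:116309690-116309938 (minus strand) for Isl1 and chr14:104468000-104468249 (minus strand) for Pou4f1.
Lhx1: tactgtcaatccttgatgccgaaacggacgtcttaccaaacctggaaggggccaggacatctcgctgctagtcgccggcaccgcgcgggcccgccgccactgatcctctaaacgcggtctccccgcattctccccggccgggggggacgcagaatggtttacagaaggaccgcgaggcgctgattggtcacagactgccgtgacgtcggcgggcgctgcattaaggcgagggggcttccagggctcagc
Otp: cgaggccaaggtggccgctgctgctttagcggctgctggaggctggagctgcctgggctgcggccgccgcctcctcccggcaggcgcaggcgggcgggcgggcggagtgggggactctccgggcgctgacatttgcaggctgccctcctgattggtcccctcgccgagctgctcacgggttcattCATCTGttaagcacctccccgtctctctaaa
Isl1: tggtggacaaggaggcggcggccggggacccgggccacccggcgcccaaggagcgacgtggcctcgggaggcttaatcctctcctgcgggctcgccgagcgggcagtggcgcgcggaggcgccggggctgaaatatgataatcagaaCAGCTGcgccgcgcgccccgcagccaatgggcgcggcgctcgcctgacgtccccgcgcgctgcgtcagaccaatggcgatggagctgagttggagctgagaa
Pou4f1: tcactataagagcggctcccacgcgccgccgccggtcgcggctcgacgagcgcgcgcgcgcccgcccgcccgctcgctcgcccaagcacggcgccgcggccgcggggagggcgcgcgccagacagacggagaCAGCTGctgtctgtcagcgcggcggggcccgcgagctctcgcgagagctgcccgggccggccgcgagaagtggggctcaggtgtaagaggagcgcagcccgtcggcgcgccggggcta
Otp held CAGATG on the opposite strand, which reads CATCTG in the sequence shown, beginning 65 bases before the RefSeq start. The Otp sequence shown holds 216 of the 250 bases and stops short of that start, so the match lies nearer its end. Isl1 and Pou4f1 each held CAGCTG, beginning 103 and 118 bases before their RefSeq starts. No other match was found, and TAATTA and GGAATG were in none of the 6 windows. Of 32817 promoter windows of the same length, 13.01% held CAGCTG, 14.5% CAGATG, 4.85% TAATTA and 12.6% GGAATG. A match is a description of these letters and not evidence of binding.

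In DCKO neural tubes 4 of the 8 genes fell, namely Lhx1, Otp, Lbx1 and Lhx5, and 0 rose. The fall was 32.0-fold for Lhx1 and 24.96-fold for Otp in the edgeR fit, at least 15.6-fold for Lbx1, and 4.40-fold for Lhx5, whose adjusted p of 0.0499 lay just under the threshold of 0.05. Lhx9, Tlx3 and Pou4f1 had lower values in DCKO libraries without passing, and Isl1 differed little. All 8 passed the filter on low counts, and 7 had an unadjusted p under 0.05, against 35.9% of all tested genes. Of all 19207 tested genes, 8.11% were called lower and 8.93% higher in DCKO. In 7 of the 8 members both DCKO libraries lay below both Control libraries on the CPM scale, against 32.9% of all tested genes, and groups that did not overlap in either direction made up 66.4% of those genes. The median log2 fold change of the 8 was -2.70, also with Lbx1 at its bound, and that of all tested genes was 0.03. Without Control 2, 0 members passed in edgeR, and without Control 1, DCKO 1 or DCKO 2 the numbers were 3, 6 and 4. In bulk tissue, fewer cells of a type and less RNA per cell cannot be told apart.

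**Figure D1:**
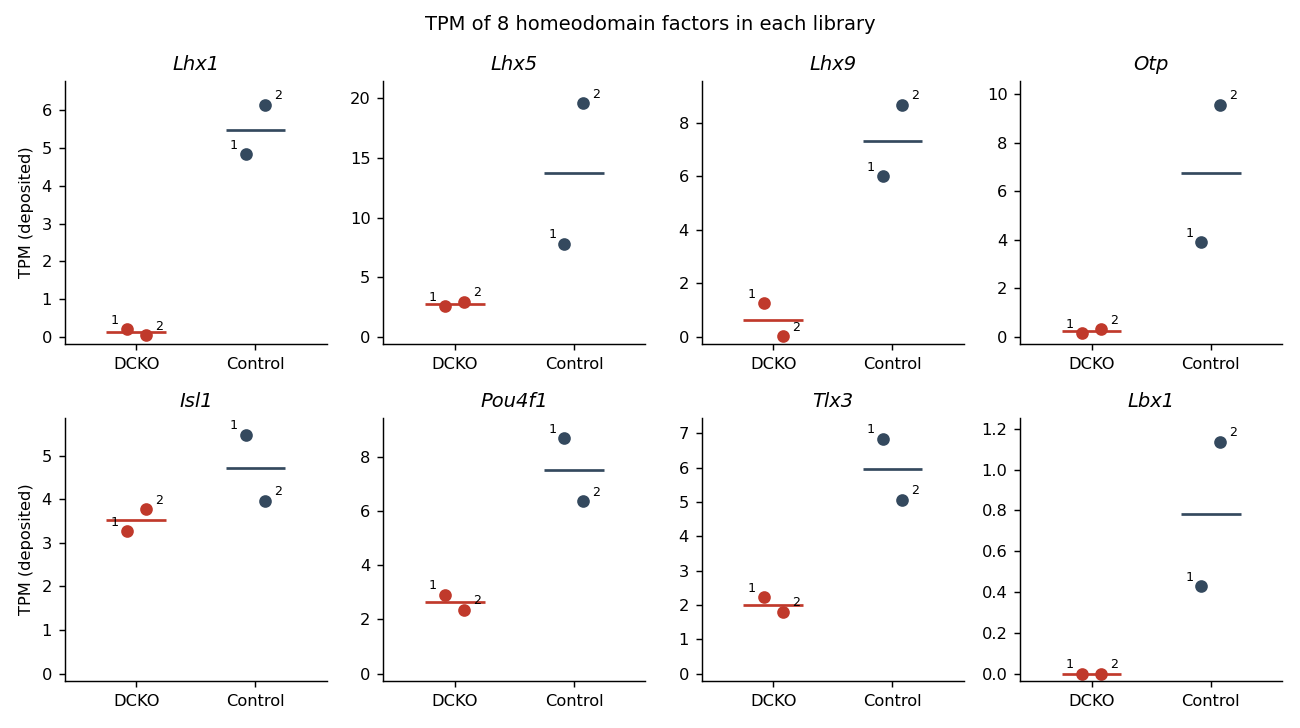
Deposited TPM of the 8 genes in each library, DCKO left and Control right, with library numbers beside the points and bars at group means (n = 2). DCKO points of Lhx1, Otp and Lbx1 lie near 0, whereas those of Isl1 lie at 3.27 and 3.78 TPM beside 5.48 and 3.97 TPM in Control. For Lhx9 the DCKO points lie apart, at 1.26 TPM in DCKO 1 and 0.0171 TPM in DCKO 2.

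Lhx1 (ENSMUSG00000018698, chromosome 11, 84518284 to 84525535, minus strand, GRCm38) encodes a LIM-homeodomain protein needed for head formation in the early embryo and later made by many interneurons, inhibitory ones of the dorsal horn included. It had 0.203 and 0.0438 TPM in DCKO libraries, against 4.83 and 6.14 TPM in Control libraries. Its raw counts were 24 and 4 in DCKO and 557 and 717 in Control. Both DCKO libraries were far below both Control libraries, and DCKO 2 rested on so few counts that its 95% Poisson interval ran from 0.0295 to 0.277 CPM. The log2 fold change was -4.999 (SE 0.75, edgeR adjusted p 0.0170). Without Control 2 the adjusted p was 0.0731 at a log2 fold change of -4.66, and without DCKO 1 the log2 fold change was -6.71.

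Otp (ENSMUSG00000021685, chromosome 13, 94875602 to 94885130, plus strand) encodes orthopedia, a homeodomain factor needed for neuroendocrine neurons of the hypothalamus. It had 0.160 and 0.316 TPM in DCKO libraries, against 3.90 and 9.57 TPM in Control libraries. The Control libraries differed from each other by 2.45-fold, and both DCKO values were still below either of them. Its log2 fold change was -4.64 (SE 0.70, edgeR adjusted p 0.0171). Without Control 2 it was -3.63, with an adjusted p of 0.0610.

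Lbx1 (ENSMUSG00000025216, chromosome 19, 45232684 to 45235812, minus strand) marks dorsal horn and hindbrain interneurons and is also made by migrating muscle precursors. It had 0 counts in both DCKO libraries, and 36 and 94 counts in Control libraries. The deposited TPM were likewise listed at 0 in both DCKO libraries, against 0.429 and 1.14 TPM in Control libraries. Against a floor of 3 counts per library it was at least 15.6-fold lower, and the edgeR adjusted p was 0.0288. That floor is 0.0750 CPM in DCKO 1 and 0.0812 CPM in DCKO 2, and the upper bounds of the 95% Poisson intervals at 0 counts are 0.0922 and 0.0998 CPM, where the Control libraries had 0.575 and 1.86 CPM. Without Control 1 the adjusted p was 0.0583 and without Control 2 it was 0.145. Such floors and intervals cover counting error alone.

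Lhx5 (ENSMUSG00000029595, chromosome 5, 120431699 to 120441223, plus strand) is the nearest relative of Lhx1 and is known for its part in forebrain and hippocampal development. It had 2.58 and 2.94 TPM in DCKO libraries, against 7.82 and 19.6 TPM in Control libraries. The DCKO values lay close together, while Control 2 was 2.50 times Control 1. Its log2 fold change was -2.14 (SE 0.54, edgeR adjusted p 0.0499). The call did not hold without Control 2 (-1.15, adjusted p 0.194), DCKO 1 (adjusted p 0.0657) or DCKO 2 (0.0656). It was also lost with upper quartile scaling (0.0545), in limma-voom (0.0978) and without sex-linked genes (0.0509).

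Lhx9 (ENSMUSG00000019230, chromosome 1, 138825186 to 138848577, minus strand) marks commissural interneurons born from the Atoh1 band and is also expressed in the dorsal diencephalon. It had 1.26 and 0.0171 TPM in DCKO libraries, against 6.004 and 8.67 TPM in Control libraries. The DCKO libraries disagreed widely, with 118 counts in DCKO 1 and 3 in DCKO 2, a count at the floor of 3. The log2 fold change of -3.25 (SE 1.21) had an edgeR adjusted p of 0.118. With a single DCKO library the adjusted p was 0.00135 without DCKO 1 (log2 fold change -7.45) and 0.0105 without DCKO 2 (-2.30), in fits where the Control pair alone sets the spread.

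Pou4f1 (ENSMUSG00000048349, chromosome 14, 104461676 to 104467999, minus strand) encodes BRN3A, a POU-homeodomain factor of sensory ganglia, the habenula and the red nucleus. It had 2.92 and 2.36 TPM in DCKO libraries, against 8.68 and 6.36 TPM in Control libraries. Its log2 fold change was -0.99 (SE 0.27), with an edgeR adjusted p of 0.0607. Tlx3 (ENSMUSG00000040610, chromosome 11, 33200752 to 33203589, minus strand) encodes a homeodomain factor that selects the excitatory over the inhibitory transmitter type in dorsal horn neurons. It had 2.22 and 1.80 TPM in DCKO libraries, against 6.84 and 5.06 TPM in Control libraries, a log2 fold change of -1.29 (SE 0.34, edgeR adjusted p 0.0570). For both genes the groups did not overlap. Without any single library the log2 fold change stayed between -1.27 and -0.77 for Pou4f1, and between -1.59 and -1.04 for Tlx3.

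Isl1 (ENSMUSG00000042258, chromosome 13, 116298281 to 116309689, minus strand) encodes a LIM-homeodomain factor of motor and sensory neurons that is also made in pharyngeal and cardiac mesoderm. It had 3.27 and 3.78 TPM in DCKO libraries, against 5.48 and 3.97 TPM in Control libraries. On the CPM scale the groups overlapped, with 5.57 and 5.33 CPM in DCKO libraries and 6.42 and 5.45 CPM in Control libraries. Its log2 fold change was -0.12 (SE 0.27, edgeR adjusted p 0.775), and it stayed between -0.27 and -0.01 without any single library.

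**Figure D2:**
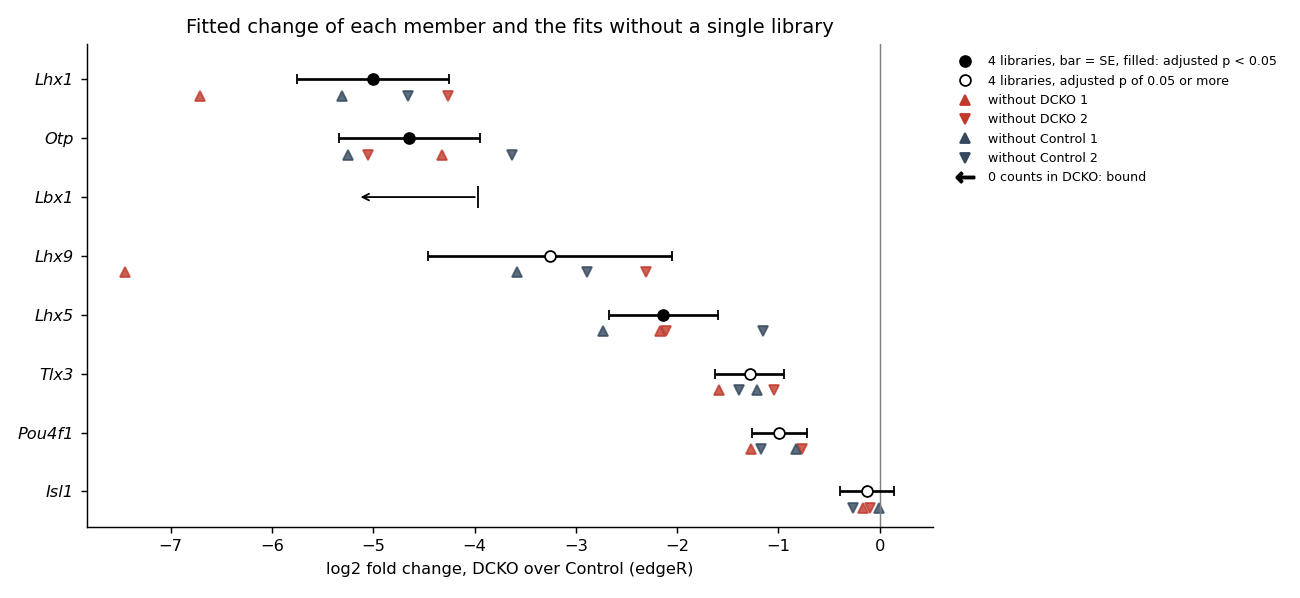
edgeR log2 fold changes of DCKO over Control with standard errors for 7 genes, filled where the adjusted p is under 0.05, with triangles for the fits that leave out a single library. The arrow for Lbx1, at 0 counts in DCKO, starts at its bound of at least 15.6-fold, and the genes run from Lhx1 at -4.999 down to Isl1 at -0.12.

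Per length, the order of the genes differed between groups. In DCKO libraries mean TPM ran from Isl1 (3.52 ± 0.357, SD, n = 2) through Lhx5 (2.76 ± 0.255), Pou4f1 (2.64 ± 0.398), Tlx3 (2.01 ± 0.298), Lhx9 (0.638 ± 0.878), Otp (0.238 ± 0.110) and Lhx1 (0.123 ± 0.112) to Lbx1 at 0. In Control libraries it ran from Lhx5 (13.7 ± 8.31) through Pou4f1 (7.52 ± 1.65), Lhx9 (7.34 ± 1.89), Otp (6.73 ± 4.01), Tlx3 (5.95 ± 1.26), Lhx1 (5.49 ± 0.929) and Isl1 (4.72 ± 1.07) to Lbx1 (0.783 ± 0.501). In Control the library values of each gene overlapped those of the next in this order, Lbx1 excepted. In DCKO, Lhx5 and Pou4f1 overlapped, as did Lhx9 with Otp and Otp with Lhx1, and the other neighbours did not. Isl1 was thus 7th of 8 by mean level in Control and 1st in DCKO.

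Isl1, Pou4f1 and Tlx3 shared a pattern that the other 5 genes did not, and this grouping was made after the values were seen. Their TPM in Control 2 were 0.724, 0.732 and 0.740 times those in Control 1. The falls were smaller on the TMM-scaled CPM scale. There Control 1 and Control 2 had 6.42 and 5.45 CPM for Isl1, 15.9 and 12.8 for Pou4f1, and 5.62 and 5.08 for Tlx3. Such a TPM ratio was not particular to these genes, as Elavl4 had 0.772, with 56.8 and 54.2 CPM. For Lhx1, Lhx9, Otp, Lhx5 and Lbx1 the same ratio was 1.27, 1.44, 2.45, 2.50 and 2.65. Together Isl1, Pou4f1 and Tlx3 made up 66.7% and 70.5% of the summed TPM of the 8 genes in DCKO libraries, against 47.8% and 25.4% in Control libraries. The summed TPM of all 8 was 12.6 and 11.2 in DCKO libraries, against 44.0 and 60.5 in Control libraries.

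Set against 18 pan-neuronal genes, the members also separated. The summed TPM of the pan-neuronal genes was 669 and 342 in DCKO libraries, against 1224 and 1281 in Control libraries. Lhx1 had 0.303 and 0.128 TPM per 1000 pan-neuronal TPM in DCKO libraries, against 3.94 and 4.79 in Control libraries. Otp had 0.240 and 0.924 in DCKO libraries, against 3.19 and 7.47 in Control libraries, and Lhx9 had 1.88 and 0.0499 in DCKO libraries, against 4.90 and 6.77 in Control libraries. For these genes, and for Lbx1 at 0 in DCKO, the groups stayed apart on this scale. Lhx5 overlapped, with 3.85 and 8.60 in DCKO libraries and 6.39 and 15.3 in Control libraries, and so did Pou4f1, with 4.37 and 6.90 in DCKO libraries and 7.09 and 4.96 in Control libraries. Tlx3 overlapped as well, whereas Isl1 was higher in DCKO libraries, at 4.89 and 11.1 against 4.48 and 3.10 in Control libraries. This ratio is a description of 2 libraries a group and was not tested.

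**Figure D3:**
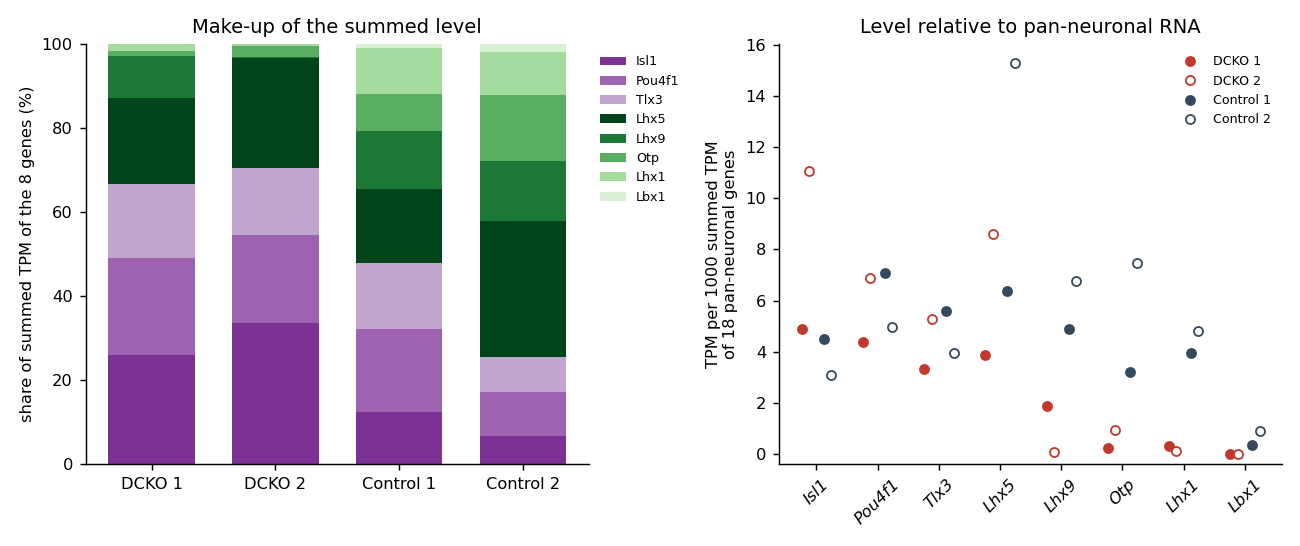
Left, share of each gene in the summed TPM of the 8 genes (percent), per library. Right, TPM of each gene per 1000 summed TPM of 18 pan-neuronal genes, filled for library 1 and open for library 2, where Lhx1 lies at 0.303 and 0.128 in DCKO and at 3.94 and 4.79 in Control.

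Close relatives and cofactors of the members gave mixed results. Of 11 tested relatives in the LIM, POU4, TLX and LBX families, 3 were called lower and 1 higher, with a median log2 fold change of -0.19. Lhx2, which shares a neuron class with Lhx9 and is also a forebrain progenitor factor, had 2.34 and 0.836 TPM in DCKO libraries, against 8.72 and 41.1 TPM in Control libraries (log2 fold change -3.60, SE 0.90, edgeR adjusted p 0.0490). Lhx3, of motor neurons and the pituitary, had 0 counts in DCKO and 32 and 19 in Control, at least 5.68-fold lower. Tlx1 had 0 counts in DCKO and 17 and 24 in Control, at least 4.78-fold lower, and Lhx8 had 12 and 31 counts in DCKO and 0 in Control, at least 10.6-fold higher. The roof plate factors Lmx1a (log2 fold change 0.33, adjusted p 0.267) and Lmx1b (0.16, 0.610) and the motor neuron factor Isl2 (-0.23, 0.751) did not pass. Among 10 LIM cofactors, Ldb1, the common adaptor, had 93.6 and 91.5 TPM in DCKO libraries and 108 and 96.3 TPM in Control libraries. Its relative Ldb2 rose (log2 fold change 2.12, SE 0.33) and the LIM-only gene Lmo3 fell (-2.64, SE 0.46), the only calls among the 10. Without Control 2, 0 relatives and 0 cofactors passed in edgeR, without Control 1, 1 relative passed as lower and 0 cofactors, and without DCKO 1, 2 cofactors passed in each direction.

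Among other transcription factors of newborn neurons, 16 of 34 tested genes fell and 0 rose in edgeR, with a median log2 fold change of -1.57. The absence of rises depended on the test, as DESeq2 called 19 lower and 3 higher. On the CPM scale both DCKO libraries lay above both Control libraries for 3 of the 34 and below them for 21. The bHLH gene Nhlh1 had 2.57 and 3.86 TPM in DCKO libraries, against 20.5 and 17.7 TPM in Control libraries (log2 fold change -2.34, SE 0.22, edgeR adjusted p 0.00788). Bhlhe22, a bHLH repressor of dorsal horn interneurons, fell by 3.27 on the log2 scale (SE 0.37) and Onecut1 by 2.09 (SE 0.26). Tal1, listed here for inhibitory neurons, fell by 2.13 (SE 0.26). Which cells gave the Tal1 reads was not tested, and the erythroid markers had a median log2 fold change of -2.07 in the same fit. Some partners of the members in known neuron classes, named here after their values were seen, were among those that fell. Foxd3, of an interneuron class that makes Lhx1 and Lhx5, went the other way without passing (edgeR adjusted p 0.0816). It had 0.409 and 8.20 TPM in DCKO libraries, against 0.194 and 0.283 TPM in Control libraries. Pax2, which accompanies Lhx1, Lhx5 and Lbx1 in inhibitory interneurons, had 0.105 and 0.206 TPM in DCKO libraries, against 2.59 and 2.02 TPM in Control libraries. Evx1, which accompanies Lhx1 and Lhx5 in commissural interneurons, had 0 and 0.0866 TPM in DCKO libraries, against 0.930 and 2.18 TPM in Control libraries. Barhl1, which accompanies Lhx9, had 1.66 and 0.365 TPM in DCKO libraries, against 9.19 and 8.02 TPM in Control libraries. Without Control 1 only 1 of these factors passed, and without Control 2 also 1.

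Progenitor factors that stand upstream of these neurons were low in DCKO. Of 17 tested genes 13 were called lower and 0 higher, with a median log2 fold change of -4.03, or -3.24 with genes at 0 in DCKO set to their bounds. Olig3, of the dorsal bands, had 0.299 and 0.485 TPM in DCKO libraries, against 15.3 and 17.6 TPM in Control libraries. The proneural genes Neurog1 and Neurod4 fell by 4.27 (SE 0.37) and 4.03 (SE 0.36) on the log2 scale. Gsx1 had 0 counts in DCKO and 378 and 404 in Control, at least 89.8-fold lower. Without Control 1, 7 passed and without Control 2, 6 passed.

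Pan-neuronal and transmitter genes were measured in the same fit. Of 18 pan-neuronal genes 4 fell, which were Elavl4 (log2 fold change -1.73, SE 0.23), Dcx (-1.35, SE 0.30), Map2 (-1.93, SE 0.44) and Cntn2 (-2.67, SE 0.63). In that fit 1 rose, the synaptotagmin gene Syt1 (0.95, SE 0.23). With library totals, with no filter or with the replicate block, 0 of the 18 were called higher. The list median was -1.22, and DCKO 1 and DCKO 2 differed, as in Tubb3 with 210 and 114 TPM in DCKO libraries and 454 and 536 TPM in Control libraries. Of 12 tested transmitter genes 3 fell, among them Gad2 (-4.94, SE 0.91), of the inhibitory transmitter GABA, and Dbh (-3.43, SE 0.65), of noradrenaline, with a list median of -1.89. Slc17a6, the vesicular glutamate transporter of excitatory neurons, had 2.13 and 0.319 TPM in DCKO libraries, against 3.69 and 4.54 TPM in Control libraries, with an edgeR adjusted p of 0.0712. Without DCKO 1, 15 pan-neuronal and 6 transmitter genes were called lower, without DCKO 2, 7 and 6, without Control 1, 0 and 1, and without Control 2, 0 and 0.

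Markers of other cells that express the same factors were compared in the same libraries. Cranial sensory ganglion markers summed to 58.3 and 69.3 TPM in DCKO libraries, against 37.5 and 34.2 TPM in Control libraries, and 1 of 10, Eya1, passed as higher (log2 fold change 1.09, SE 0.21), with none of the 10 at 0 in any library. That call did not hold without Control 1 or Control 2, with library totals or with the replicate block, and DESeq2 called 4 higher. Without DCKO 1 some of the 10 were called lower and others higher. On the CPM scale both DCKO libraries lay above both Control libraries for 6 of the 10, and the groups overlapped for 4. These values stand beside those of Isl1, Pou4f1 and Tlx3, and their part in the result was not tested. Of the pharyngeal and cardiac mesoderm markers 4 of 8 were tested and 0 passed, with sums of 5.23 and 10.4 TPM in DCKO libraries against 3.25 and 2.09 TPM in Control libraries, and with Nkx2-5, Gata4 and Hand2 at 0 in both Control libraries. The smallest p was that of Tbx1 (log2 fold change 2.16, adjusted p 0.0562). Of 5 muscle precursor markers 3 were tested and 1 passed, Met, as higher (2.27, SE 0.39), while Myf5 (-1.84, edgeR adjusted p 0.170) had lower values in both DCKO libraries without passing. The list summed to 4.04 and 5.95 TPM in DCKO libraries, against 6.22 and 6.56 TPM in Control libraries, with Myod1 and Myog at 0 in both Control libraries. DESeq2 called 1 of these genes higher and 1 lower, and without Control 1 or Control 2, 0 passed in edgeR. Of the intermediate mesoderm markers only Osr1 could be tested (2.01, adjusted p 0.0846). For neural crest and glial markers 2 of 6 tested were higher, Erbb3 (4.88, SE 0.75) and Ets1 (1.39, SE 0.30), with sums of 54.5 and 98.4 TPM in DCKO libraries against 59.1 and 64.6 TPM in Control libraries. Without Control 1 or Control 2, 0 of them passed, without DCKO 1, 4 were higher, and with library totals 1 was higher and 1 lower.

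Markers of the tissue itself and of its neighbours moved too, and their part in the fall of the members was not tested. Of 11 neural tube markers 5 fell, including Sox3 (log2 fold change -2.91, SE 0.20), Nes (-1.93, SE 0.19) and Sox1 (-2.15, SE 0.21), and Otx2 rose (1.00, SE 0.16). Their summed TPM was 404 and 434 in DCKO libraries, against 1212 and 1048 in Control libraries. Surface ectoderm markers were higher for 10 of 12 tested and summed to 167 and 236 TPM in DCKO libraries, against 14.4 and 17.01 TPM in Control libraries, with Krt5 and Krt14 at 0 in both Control libraries. Cranial mesenchyme markers were higher for 9 of 13 and summed to 933 and 585 TPM in DCKO libraries, against 226 and 197 TPM in Control libraries. Endothelial markers were higher for 7 of 12, with sums of 286 and 225 TPM in DCKO libraries against 127 and 99.2 TPM in Control libraries, and pericyte and mural markers for 5 of 7, with 243 and 520 TPM in DCKO libraries against 28.3 and 21.2 TPM in Control libraries. Erythroid markers were lower for 7 of 11, with sums of 1769 and 1556 TPM in DCKO libraries against 7228 and 8839 TPM in Control libraries. Without Control 1, 3 neural tube markers were called lower, and 7 ectoderm, 0 mesenchyme, 0 endothelial and 3 mural markers higher, and without Control 2 these were 3, 5, 1, 0 and 1, with 5 erythroid markers lower in the first case and 1 in the second.

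**Figure D4:**
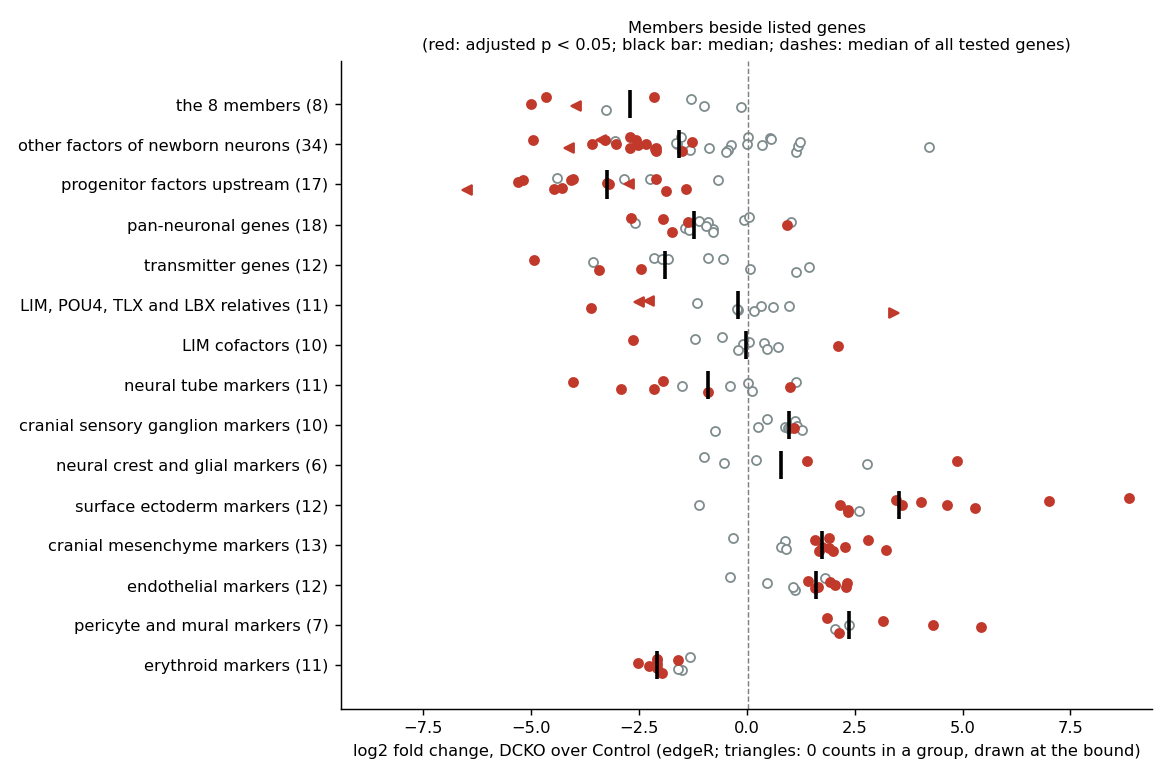
edgeR log2 fold changes of DCKO over Control for each tested gene, by list, with the number tested in parentheses, medians as black bars and the median of all tested genes as a dashed line. Red points passed at an adjusted p of 0.05, and triangles mark genes at 0 counts in a group, drawn at their bound. The medians of the members (-2.70) and of the progenitor factors (-3.24) lie left of that of the pan-neuronal genes (-1.22).

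Regional genes, listed after the values were seen, differed between the Control libraries. Of 11 forebrain regional genes the summed TPM was 9.55 and 18.6 in DCKO libraries, against 13.4 in Control 1 and 61.1 in Control 2. Emx2, of the dorsal forebrain, had 0.758 and 0.990 TPM in DCKO libraries, against 1.35 and 11.9 TPM in Control libraries (edgeR adjusted p 0.122). Of the 10 tested, 0 passed in edgeR. Control 2 was thus higher than Control 1 for this sum and for Emx2. It was also higher for Lhx2, Otp, Lhx5, Lbx1, Lhx1 and Lhx9, and lower for Isl1, Pou4f1 and Tlx3. Without Control 2 the log2 fold change was -3.63 for Otp and -1.15 for Lhx5, against -4.64 and -2.14 with all libraries. That fit leaves 1 Control library and does not test forebrain content. Of 9 hindbrain regional genes 4 were tested and 0 passed, with sums of 5.31 and 9.74 TPM in DCKO libraries against 10.3 and 8.54 TPM in Control libraries. How far the extent of dissection bears on the members was not tested.

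Noncoding neighbours of Lhx1 and Lhx5 were at 0 in both DCKO libraries, and those of Tlx3 and Pou4f1 were not. Gm12116, 466 bases from Tlx3, had 18 and 10 counts in DCKO libraries, and 21 and 12 counts in Control libraries. D130079A08Rik, 2340 bases from Pou4f1, had 2 and 0 counts in DCKO libraries, and 10 and 8 counts in Control libraries. Lhx1os, a noncoding gene that begins 125 bases from Lhx1 on the opposite strand and was named after its values were seen, had 0 counts in both DCKO libraries, and 42 and 116 counts in Control libraries. Gm27199, antisense to Lhx5 and overlapping it by 69 bases, had 0 counts in both DCKO libraries, and 10 and 32 counts in Control libraries, too few to be tested. Whether strand was used in counting is not given in the sources used here, so reads in that overlap cannot be assigned. Aatf, the coding gene next to Lhx1, had 37.9 and 42.0 TPM in DCKO libraries and 44.1 and 37.3 TPM in Control libraries. On the CPM scale it was higher in DCKO libraries, at 52.4 and 48.8 CPM against 35.6 and 36.3 CPM in Control libraries. Its log2 fold change was 0.49 (edgeR adjusted p 0.0788).

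The 5 genes nearest to the mean profile of the members over the 4 libraries included Mgat5b, Cdkn2c, Nhlh2 and Rnf182, and the 5 lay at Euclidean distances of 0.186 to 0.395 in centred log2 CPM among 12864 genes. Mgat5b, a glycosyltransferase gene, had 1.28 and 0.722 TPM in DCKO libraries, against 9.03 and 10.2 TPM in Control libraries. Cdkn2c, an inhibitor of the cell cycle, had 1.56 and 1.18 TPM in DCKO libraries, against 13.9 and 17.2 TPM in Control libraries.

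In the authors' deposited table of differential expression, which lists 7 of the 8 members and not Lbx1, 6 had a false discovery rate under 0.05, all with negative fold changes, where 13.2% of the genes in that table were lower. Its log2 fold changes were -4.95 for Lhx1, -4.59 for Otp, -3.21 for Lhx9, -2.09 for Lhx5, -1.23 for Tlx3 and -0.94 for Pou4f1, and -0.07 for Isl1 with a false discovery rate of 0.928. In DESeq2, too, 6 of the 8 members were lower, against 13.5% of tested genes, and there Lbx1 passed while Lhx9 did not (adjusted p 0.180). Calls for Lhx9, Pou4f1, Tlx3 and Lhx5 differed between tests, Lhx5 being lost (adjusted p 0.0978) and Tlx3 called (0.0453) in limma-voom. Lhx1 and Otp passed in edgeR, DESeq2 and limma-voom and in the authors' deposited table.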

How the data were processed

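Polyadenylated RNA per the labels' protocols was sequenced on an Illumina instrument from a stranded kit. The authors deposited read counts per Ensembl gene without scaling, TPM per gene, and a table with a log2 fold change, p-value and false discovery rate per gene. Tools named in the submitters' processing notes, without roles, are R 3.3.2, limma 3.30.13, edgeR 3.16.5, StringTie and TopHat2 2.1.1, and the builds are GRCm38 and mm10. Symbols and coordinates are those of GENCODE M21, which matched 54495 of the 54532 IDs.

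Counts were fitted over all genes with edgeR 4.0.16 in R 4.3.3 by its quasi-likelihood test (TMM scaling, filterByExpr at 10 counts per library and 15 in total, group as the only term, 2 residual degrees of freedom). Adjusted p-values are Benjamini-Hochberg over the 19207 genes tested, two-sided. The edgeR step was checked on simulated counts. Nothing says that libraries of a group came from separate embryos, so p-values measure only the spread between these libraries, which may be technical. Depth was 41798361 to 55137810 counts per library. CPM and edgeR fold changes use TMM-scaled totals, whereas deposited TPM were used without that scaling, so ratios on these scales can differ. For Pou4f1 mean TPM in DCKO was 35.1% of that in Control, while the fitted fold was 0.503. Standard errors (SE) come from the fold change and F statistic. Where a group had 0 counts, folds are bounds against 3 counts per library.

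Members and lists were chosen with earlier results of these data known, and lists are described by counts and medians. Named genes were the members, up to 4 called genes per list by p-value or else the smallest p, the 5 genes most like the members, and overlapping genes, a few of which are not reported here. Lmx1a, Lmx1b, Isl2, Ldb1, Tubb3, Slc17a6, Aatf, Gm12116, D130079A08Rik and markers at 0 were added after their values were seen. Alternatives were DESeq2 1.42.0, limma-voom and limma 3.58.1 on log2(TPM + 1) and log2(TPM + 0.1), other scalings, no filter, a replicate block, and leaving out each library, the ribosomal cluster or sex-linked genes.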

Additional observations from a re-analysis of the deposited data

How the results depend on the processing

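All 8 members kept a negative log2 fold change in every alternative that gave a value, and 0 were called higher. Members called lower numbered 6 in DESeq2 and also with library totals (which shift the all-gene median by -0.35), and 3 with upper quartile scaling or without sex-linked genes, the last chosen after seeing the data. Without a single library they ranged from 0 (without Control 2) to 6 (without DCKO 1). On unfiltered TPM limma called 0 members with a pseudocount of 1 (0 of 30682 genes in all, with 6446 at an unadjusted p under 0.05) and 0 with a pseudocount of 0.1, where 56 genes passed. Over genes with a mean TPM of at least 1, a filter added after seeing the data that leaves out Lbx1, it called 6. In edgeR 3274 genes passed with all libraries, 5196 in DESeq2 and 4963 with library totals, and leaving out DCKO 1, DCKO 2, Control 1 or Control 2 gave 4461, 5184, 383 and 227 in that order. The labels give the groups the same library numbers but no pairing, and deviations of same-numbered libraries correlated at -0.0952 across 12870 genes. With the replicate number as a block, 3 members (Lhx1, Otp and Lbx1) and 1778 genes passed. Leaving out a library leaves 1 in its group, assumed to vary like the others. Depth limits Lhx1, Lhx9 and Otp in DCKO libraries, with 3 to 24 counts for these genes apart from Lhx9 in DCKO 1.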

Other observations

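Genes of neural crest and its glia differed between the DCKO libraries, chosen here after their values were seen. Sox10, the factor of crest-derived glia, had 1.14 and 14.5 TPM in DCKO 1 and DCKO 2, against 1.12 and 1.25 TPM in Control libraries. Foxd3, a factor of both crest and a class of interneurons that makes Lhx1 and Lhx5, had 0.409 and 8.20 TPM in DCKO 1 and DCKO 2, against 0.194 and 0.283 TPM in Control libraries (edgeR adjusted p 0.0816).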
